A study of Mus musculus with 6 samples.

Results

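The genes described here encode subunits of respiratory complexes II, III and IV, of the ATP synthase (complex V), and the electron carrier cytochrome c. Tissue isoform genes of complex IV, among them Cox6b2, were kept apart, although Cox6b1 is included here. The subunit list held 35 genes, matched to the array by single platform symbol or by synonym. Of these, 33 matched by platform symbol and 1 (Atp5f1, now Atp5pb) by synonym, and Cox7b had no probe set assigned to it alone. The remaining 34 were all bright enough to test, out of 10685 genes tested in the series. The cells were C2C12, an immortal mouse myoblast line that can be driven to form muscle fibres. Cells given 50 mM sodium pyruvate for 72 h (3 arrays) were compared with untreated cells kept in basal medium for 72 h (3 arrays). Each medium was based on DMEM, with serum from fetal calves at 10%, antibiotics at 1% and L-glutamine at 4 mM. The pyruvate medium was made from DMEM lacking sodium pyruvate, and the labels leave unsaid whether the basal DMEM contained any. A control with the same sodium or osmolality was not analysed here. Nothing in the labels states that replicates came from independent cultures. The p-values therefore reflect only the variation among these arrays, and part or all of it may be technical.

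The respiratory chain of the inner mitochondrial membrane passes electrons from succinate (complex II) and NADH (complex I) through ubiquinone to complex III, then through cytochrome c to complex IV, which reduces oxygen. Complexes III and IV pump protons, and the ATP synthase uses the resulting gradient to turn its c-ring and central stalk and make ATP in its F1 head. Complex II is encoded wholly in the nucleus, whereas complexes III, IV and V also contain subunits encoded in mitochondrial DNA, which were not examined here. In muscle cells the amount of these complexes rises as myoblasts differentiate and withdraw from the cell cycle.

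Signals are MAS5 intensities on a linear scale, deposited after scaling of every array to a common trimmed mean. A change is the difference of mean log2(signal + 16), pyruvate minus untreated, with its standard error from limma, and a gene is called when limma's Benjamini-Hochberg adjusted p is below 0.05. Each gene is given by its brightest probe set (the group of probes that yields 1 signal), and signals are listed in the order of replicates 1, 2 and 3. Signals of different probe sets are not compared with each other as transcript levels. In bulk samples scaled this way, fewer cells of a type and less RNA per cell cannot be told apart.

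The myoblast markers Myod1, Myf5, Des and Cdh15 were bright in both groups, with mean signals between 526.6 and 2020. Of these, Myf5 fell by 0.65 (adjusted p = 0.00042) and Cdh15 by 0.39 (adjusted p = 0.00061), Myod1 rose by 0.26 (adjusted p = 0.0029), and Des did not pass (-0.08, adjusted p = 0.21). Markers of differentiating muscle fell with pyruvate: Myog, a transcription factor of muscle differentiation, averaged 212.0 ± 40.1 in pyruvate-treated cells and 1738 ± 44.1 in untreated cells (SD, n = 3 each). Mylpf and Acta1, which encode a fast myosin light chain and skeletal actin, also fell. Ptprc, Pecam1, Cdh5, Adipoq and Fabp4, which mark leukocytes, endothelium and adipocytes, lay below the signal filter. Of the dimmer markers Cd68, Csf1r and Kdr, Kdr (a receptor of endothelial cells) fell, with mean signals of 25.8 in pyruvate-treated and 40.4 in untreated cells.

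The subunit genes were among the brightest on the array, and their response was modest and mixed. Of the 34 tested, 14 rose, 1 fell and 19 did not pass the test. Over the brightest probe set of every gene, 20.7% were called higher and 14.5% lower. The median change of the 34 genes was 0.12, against 0.03 over all genes. The 3 pyruvate signals lay wholly above or below the 3 untreated signals for 19 of the 34 (55.9%), a share to be read against 45.4% of all probe sets. Apart from Cox7c, the genes lay between the 88.4th and 99.65th percentile of brightness, with standard errors of 0.0447 to 0.0798. The mean over the 34 genes, relative to the untreated mean, was 0.06, 0.15 and 0.13 on the 3 pyruvate arrays and -0.02, 0.01 and 0.01 on the 3 untreated arrays, so pyruvate replicate 1 lay nearest to the untreated arrays.

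**Figure D1:**
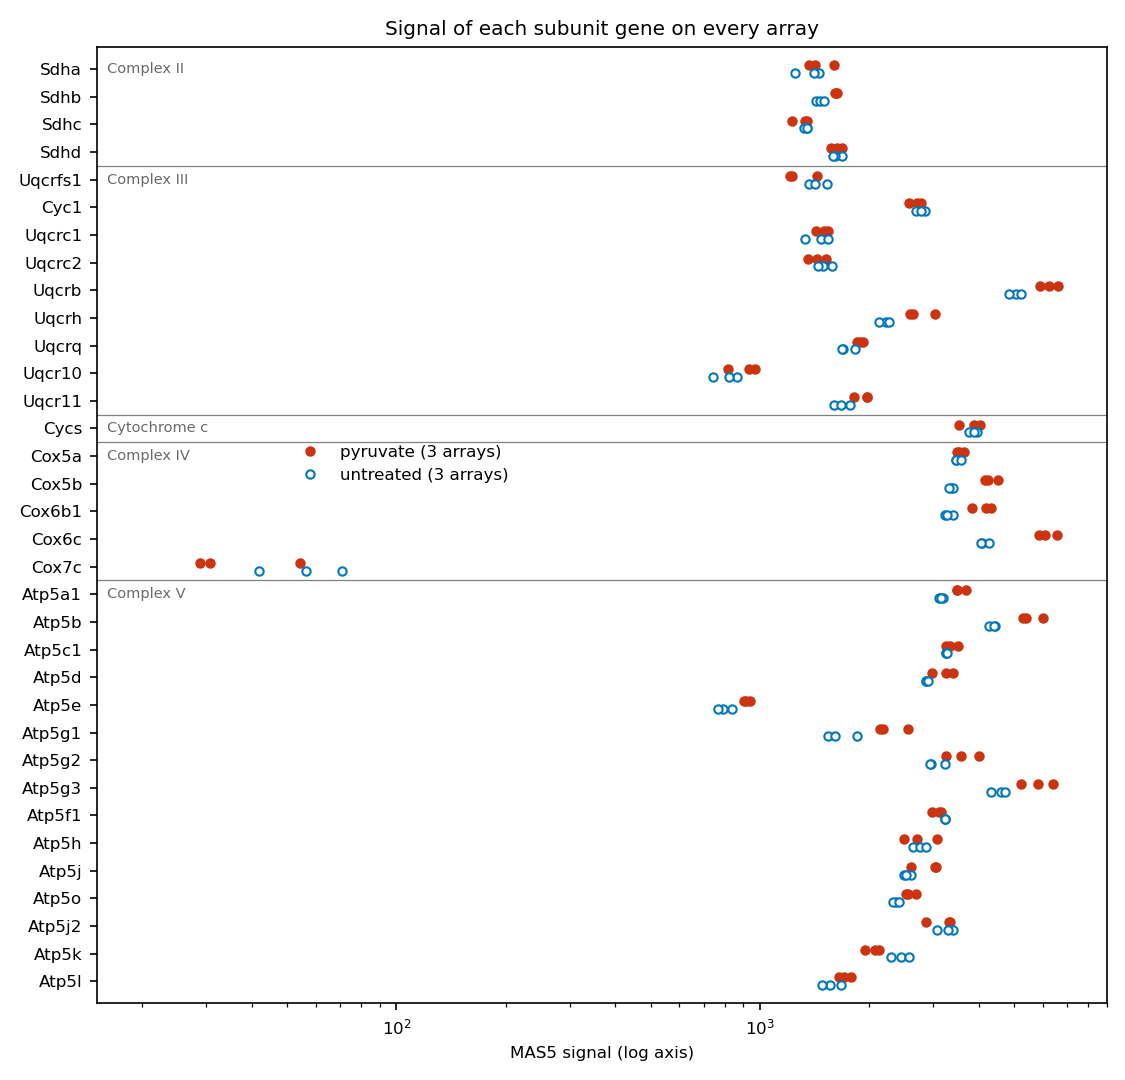
MAS5 signal (log axis) of each of the 34 measured subunit genes on every array, filled points for the 3 pyruvate arrays and open points for the 3 untreated arrays, grouped by complex. Cox6c shows the widest gap between the groups among the bright genes, with pyruvate signals of 5842 to 6569.7 and untreated signals of 4051 to 4276, and Cox7c stands apart as the single dim gene.

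The changes moved with brightness across the whole array. In probe sets with a mean log2 signal between 9 and 10, the median change was -0.00, with 22.4% called higher and 25.0% lower. Between 11 and 12, where 16 of the subunit genes lay, the median was 0.15 and 50.3% were called higher against 7.63% lower. Above 12, where 4 lay, the median was 0.43 and 96.0% were called higher. Calls among the subunit genes followed the same order: 4 of 4 above 12, 6 higher and 1 lower of 16 between 11 and 12, and 4 of 13 between 9 and 11. What produced this dependence on brightness was not tested. Separately, the 9 spiked-in bacterial and phage control probe sets above the filter were all higher on the pyruvate arrays, by a mean of 0.56. They spanned mean log2 signals of 6.79 to 12.1 and so included levels at which the median change of all probe sets was near 0.

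Each gene was therefore set beside the 500 probe sets nearest to it in brightness, as a description with no test. Of the 34, 18 lay above the median of their like-brightness probe sets and 16 below. On average 46.9% of the like-brightness probe sets were called higher and 11.3% lower, beside 41.2% and 2.94% of the subunit genes. None lay outside the 5th to 95th percentile of its like-brightness probe sets. Atp5g1 (above 94.8% of them) and Cox6c (above 90.8%) were nearest the top, and Cox7c (6.2%), Atp5k (6.6%) and Cycs (8.0%) nearest the bottom. The 4 brightest genes, Uqcrb, Cox6c, Atp5b and Atp5g3, shared a single like-brightness set at the bright end of the array, with a median of 0.32. Their placing depended on the size of that set. Against the nearest 200 probe sets the medians were 0.41 to 0.45. Atp5b and Atp5g3 then lay below (-0.06 and -0.07) rather than above (0.03 each), and Cox6c stayed above (0.15). Against the nearest 1000, Uqcrb lay above (0.11) rather than below (-0.01).

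The tests were also run after quantile and after cyclic loess normalization. After quantile normalization the median change lay near 0 at every brightness, and it was -0.00 above log2 12. Loess left part of the trend: above log2 12 its median was 0.24 with 79.9% called higher, and between 10 and 11 it was -0.04 with 20.3% higher and 33.0% lower. Loess values of the 4 brightest genes stand beside that remaining shift. Over all probe sets, 16.3% were called higher and 15.9% lower as deposited, 15.7% and 15.5% after quantile normalization, and 15.8% and 16% after loess. Among the 34 subunit genes, quantile normalization gave 5 higher and 9 lower with a median of -0.02, and loess gave 8 higher and 9 lower with a median of 0.02. Cox5b, Cox6c, Atp5e and Atp5g1 were called higher under all 3 scalings, and Atp5k was called lower under all 3. Uqcrfs1, Cyc1, Cycs, Cox5a, Atp5c1, Atp5f1 and Atp5j2 did not pass as deposited and were called lower under both other scalings. A further 11 genes were called under none.

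**Figure D2:**
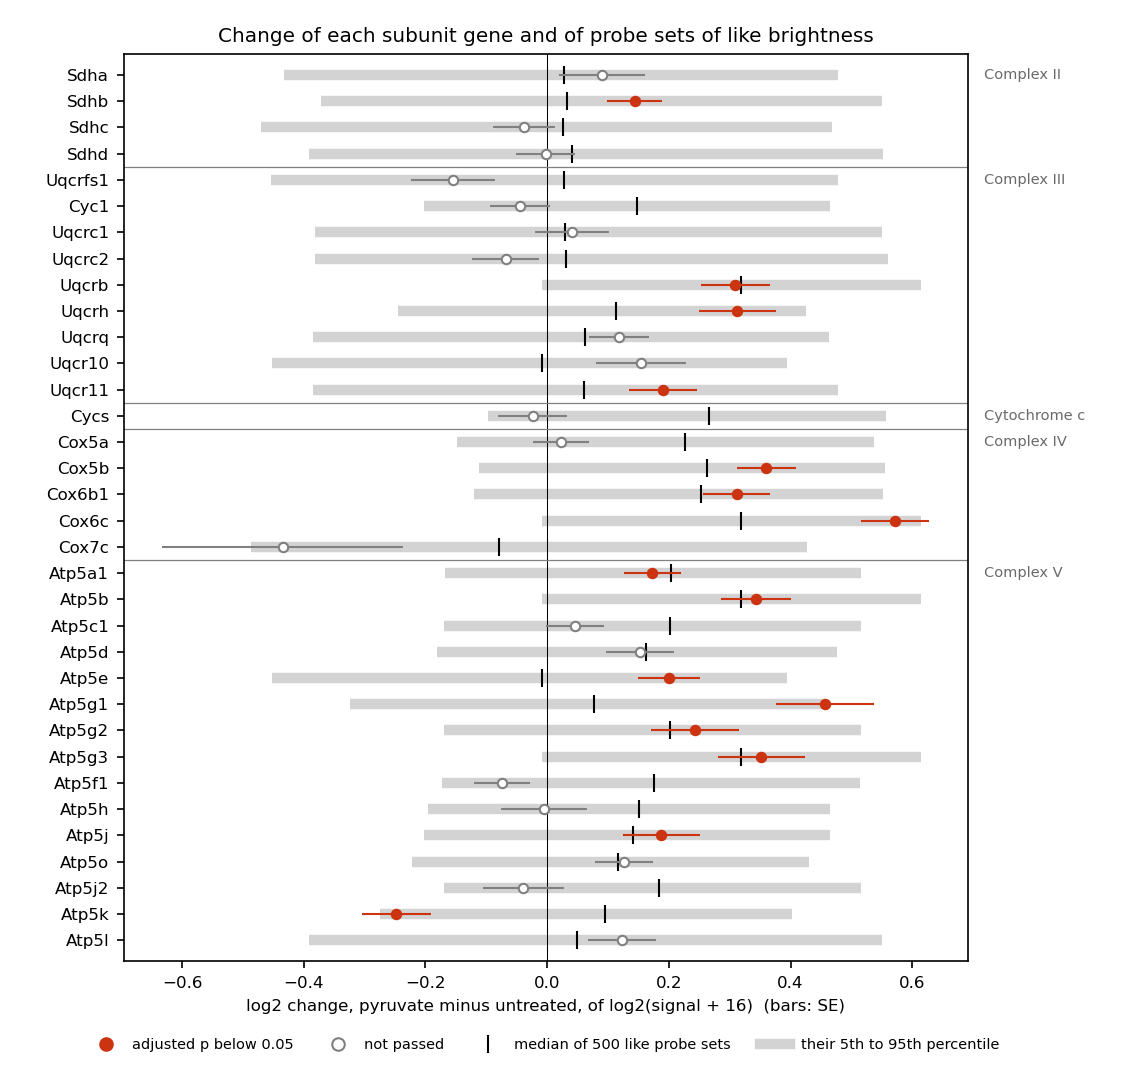
Log2 change of each subunit gene (points, pyruvate minus untreated, bars SE, filled where adjusted p was below 0.05) with the median (tick) and 5th to 95th percentile (grey bar) of the 500 probe sets nearest in brightness. Every point lies within its grey bar, with Atp5g1 and Cox6c near the upper end and Cycs, Cox7c and Atp5k near the lower end.

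Complex II, succinate dehydrogenase, showed little change. Of its 4 genes, 1 rose and 3 did not pass, with a median change of 0.04 (like-brightness median 0.03). By their brightest probe sets, none was called after quantile or loess normalization. Sdhb, the iron-sulfur subunit that hands electrons from the flavin towards ubiquinone, had signals of 1626, 1618 and 1604 in pyruvate-treated cells, against 1428, 1460.1 and 1497 in untreated cells. The groups did not overlap, and Sdhb rose by 0.14 ± 0.04 (SE, n = 3 each, adjusted p = 0.029). This call was lost in 3 of the 6 fits that each left out an array.

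Sdha, the flavoprotein that oxidises succinate, had 1413, 1598 and 1363.0 in pyruvate-treated cells and 1452, 1249 and 1404 in untreated cells, which overlapped (change 0.09, adjusted p = 0.37). A dimmer Sdha probe set did pass, at 1111.0 ± 77.5 in pyruvate-treated and 947.6 ± 18.5 in untreated cells (0.22, adjusted p = 0.011). That probe set was also called higher after quantile normalization (0.22, adjusted p = 0.011). The membrane anchors Sdhc and Sdhd, which hold the heme and the ubiquinone site, changed by -0.04 (adjusted p = 0.60) and -0.00 (adjusted p = 0.98), with overlapping groups. For Sdhd the dimmer of 2 probe sets fell by 0.44 (adjusted p = 0.0026), so the probe sets of this gene differed. The dimmer one, whose probes can also match other transcripts (_x_at), was also called lower after quantile normalization (-0.44, adjusted p = 0.0036).

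In complex III, the cytochrome bc1 complex, 3 of 9 genes rose as deposited and 6 did not pass (median 0.12, like-brightness median 0.06). The 3 were small accessory subunits, and 1 of them, Uqcrb, was called lower after quantile normalization. Quantile normalization gave 1 higher (Uqcrh) and 3 lower (Uqcrfs1, Cyc1 and Uqcrb). Loess also gave 1 higher and 3 lower, but not the same genes: Uqcrb was higher, and Uqcrfs1, Cyc1 and Uqcrc2 were lower. Uqcrh, the acidic hinge protein at the cytochrome c docking site, had 3024, 2579 and 2629.7 with pyruvate and 2223, 2122 and 2259.7 untreated. Its groups did not overlap, and it rose by 0.31 ± 0.06 (SE, n = 3 each, adjusted p = 0.0029), and also after quantile normalization (0.22, adjusted p = 0.022). After loess it missed the threshold (0.19, adjusted p = 0.055). Its second bright probe set gave 2207 ± 133.4 with pyruvate and 2413 ± 161.2 untreated, a change of -0.13 (adjusted p = 0.14). That probe set was called lower after quantile normalization (-0.22, adjusted p = 0.0095), so the probe sets of Uqcrh differed. RefSeq lists 2 named Uqcrh pseudogenes.

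Uqcr11, a small subunit of the membrane domain, had 1974, 1809.7 and 1970.4 with pyruvate and 1598, 1667 and 1771 untreated. It rose by 0.19 (adjusted p = 0.022) with no overlap between groups, a call lost in 4 of the 6 fits that left out an array. Uqcrq, which lies beside cytochrome b, had 1849, 1918 and 1883 with pyruvate and 1694, 1685 and 1825 untreated. Its groups did not overlap either, but the change of 0.12 missed the threshold (adjusted p = 0.088). Uqcr10 changed by 0.15 (adjusted p = 0.13), with overlapping groups.

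Uqcrb, a subunit at the matrix side of cytochrome b, showed how far a call could depend on the probe set and on scaling. Its brightest probe set, the brightest of all the subunit genes, had 5899.9, 6605 and 6233 with pyruvate and 5074, 5206 and 4828 untreated. It rose by 0.31 ± 0.06 (SE, adjusted p = 0.0017) as deposited and by 0.11 after loess (adjusted p = 0.041), below the loess median of 0.24 at its brightness, but was lower by the same probe set after quantile normalization (-0.16, adjusted p = 0.0025). Its other probe set had 1333.0, 1370.5 and 1336 with pyruvate and 1859, 1727 and 1869.0 untreated. That probe set fell by 0.43 ± 0.05 (SE, adjusted p = 7e-05), and by 0.47 after quantile normalization. No direction can be given for Uqcrb from these arrays.

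The redox subunits of complex III did not pass as deposited. Uqcrfs1, the Rieske iron-sulfur protein, had 1210.0, 1431 and 1229 with pyruvate, against 1363, 1528 and 1412 untreated, with overlapping groups (change -0.15, adjusted p = 0.11). It was called lower after quantile (-0.19, adjusted p = 0.048) and loess normalization (-0.23, adjusted p = 0.017). Cyc1, the membrane-bound cytochrome c1, had 2575, 2708 and 2769.5 with pyruvate, against 2686, 2845 and 2776 untreated (-0.05, adjusted p = 0.52). It too was called lower after quantile (-0.18, adjusted p = 0.0042) and loess (-0.18, adjusted p = 0.0059). The core proteins Uqcrc1 and Uqcrc2, which face the matrix and resemble processing peptidases, changed by 0.04 (adjusted p = 0.66) and -0.07 (adjusted p = 0.38). Uqcrc2 was called lower after loess (-0.15, adjusted p = 0.039) but not after quantile normalization (-0.11, adjusted p = 0.10).

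Cycs, cytochrome c itself, carries electrons between complexes III and IV and is also released in apoptosis. Its signals were 3525, 4026 and 3868 with pyruvate and 3768, 3940.5 and 3884 untreated, which overlapped. The change was -0.02, with a 95% confidence interval of -0.15 to 0.10 and an adjusted p of 0.79. The like-brightness median was 0.27, and Cycs was called lower after quantile normalization (-0.29, adjusted p = 0.00018) and after loess (-0.19, adjusted p = 0.0044). A dimmer Cycs probe set fell as deposited, at 881.1, 1036 and 1000.3 with pyruvate and 1143, 1196 and 1243 untreated (-0.29, adjusted p = 0.0047), while another bright one did not pass (0.06, adjusted p = 0.35). RefSeq lists 3 named Cycs pseudogenes.

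Among the complex IV genes, 3 of 5 rose and 2 did not pass, with a median of 0.31. Their like-brightness probe sets had a median of 0.25, and the median of the genes minus that of their like was 0.06. Quantile normalization gave 2 higher and 1 lower (median 0.09), and loess 3 higher and 1 lower (median 0.15). These nuclear subunits surround the catalytic core encoded in mitochondrial DNA. Cox6c, a single-span subunit of the membrane face, had 5842, 6569.7 and 6089 with pyruvate and 4091, 4276 and 4051 untreated. The groups were well apart, and the gene rose by 0.57 ± 0.06 (SE, n = 3 each, adjusted p = 2.4e-05), the largest change among the 34. It was smaller but still called after loess (0.38, adjusted p = 2.2e-05) and quantile normalization (0.16, adjusted p = 0.0027). The second Cox6c probe set did not pass (0.03, adjusted p = 0.83), with overlapping signals of 1036 to 1316 with pyruvate and 1066 to 1254 untreated.

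Cox5b, the zinc-binding subunit on the matrix side, had 4243, 4513 and 4164 with pyruvate and 3352, 3389 and 3308 untreated. It rose by 0.36 ± 0.05 (SE, n = 3 each, adjusted p = 0.00023) and was called higher under all 3 scalings. Its brightest probe set ends in _x_at, a suffix for probes that can also match other transcripts. With such probe sets set aside the change was 0.14 and missed the threshold (adjusted p = 0.055), and RefSeq lists 1 named Cox5b pseudogene.

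Cox6b1, on the intermembrane side where cytochrome c binds, had 3828, 4178 and 4316 with pyruvate, against 3235, 3401 and 3275 untreated. It rose by 0.31 ± 0.06 (SE, adjusted p = 0.0013), and its second probe set rose by 0.36 (adjusted p = 0.00027), so both probe sets of this gene moved alike. After quantile normalization the brightest gave 0.09 (adjusted p = 0.088), while the second was called higher (0.19, adjusted p = 0.0028). The brightest was called higher after loess (0.15, adjusted p = 0.017).

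Cox5a, another matrix-side subunit, had 3518, 3634 and 3489 with pyruvate and 3453, 3458 and 3567 untreated. The groups overlapped (0.02, adjusted p = 0.75), and it was called lower after quantile (-0.20, adjusted p = 0.0020) and loess (-0.13, adjusted p = 0.021). As deposited, its other bright probe sets were called in opposite directions, one higher (0.21, adjusted p = 0.017) and one lower (-0.24, adjusted p = 0.013). Cox7c, a small membrane subunit, was measured only dimly, at 30.7, 28.8 and 54.2 with pyruvate and 41.8, 70.7 and 56.4 untreated. Its change of -0.43 carried a standard error of 0.20 and did not pass (adjusted p = 0.12). At these signals a change of that size was not resolved.

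**Figure D3:**
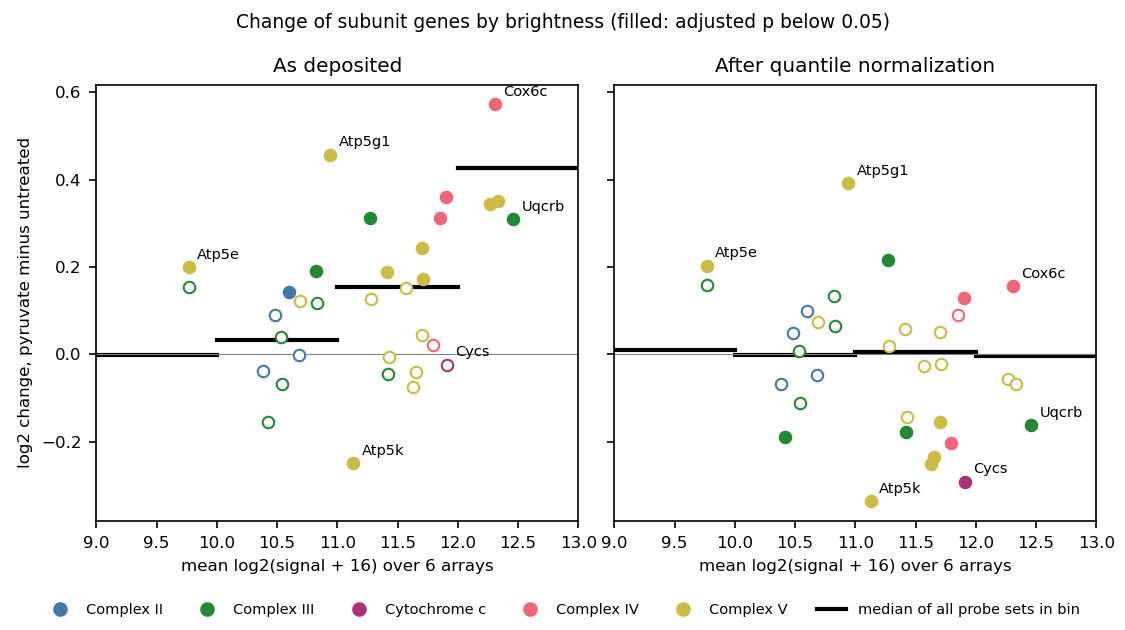
Log2 change of the subunit genes against their mean log2(signal + 16), as deposited and after quantile normalization, coloured by complex and filled where adjusted p was below 0.05, with Cox7c outside the axis range. Black lines give the median of all probe sets in each brightness bin, which climbs to 0.43 above log2 12 as deposited and stays near 0 after quantile normalization, where Uqcrb, Atp5b and Atp5g3 turn below 0.

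In complex V, the ATP synthase, 7 of 15 genes rose, 1 fell and 7 did not pass (median 0.15, like-brightness median 0.16). The median of the genes minus that of their like was 0.01. Quantile normalization left 2 higher and 4 lower, and loess 4 higher and 4 lower. Of the 7 that rose, 3 belonged to the c-ring, 3 to the F1 head and central stalk and 1 to the peripheral stalk.

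The c-ring is the rotor through which protons pass, and in mammals separate genes, Atp5g1, Atp5g2 and Atp5g3, encode the same mature subunit with different import sequences. All 3 rose as deposited, although Atp5g3 turned to -0.07 after quantile normalization. Their upstream sequences are shown because they differ while the mature product is the same. Each run is the 120 bases just before the RefSeq start, on GRCm38.p6 and on the minus strand, and capitals mark a motif match: NRF1 (GCGCATGCG, on overlapping letters of both strands) in Atp5g2, and the reverse complement of the ERR motif TCAAGGTCA in Atp5g3. Atp5g1 holds neither in this stretch. The stretches lie at chr11:96075632-96075751 for Atp5g1, chr15:102671048-102671167 for Atp5g2 and chr2:73911327-73911446 for Atp5g3.
Atp5g1: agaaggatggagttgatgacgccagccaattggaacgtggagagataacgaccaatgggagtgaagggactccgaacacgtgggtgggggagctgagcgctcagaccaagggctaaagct
Atp5g2: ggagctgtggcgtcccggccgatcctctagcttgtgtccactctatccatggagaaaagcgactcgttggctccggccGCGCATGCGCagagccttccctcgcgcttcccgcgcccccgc
Atp5g3: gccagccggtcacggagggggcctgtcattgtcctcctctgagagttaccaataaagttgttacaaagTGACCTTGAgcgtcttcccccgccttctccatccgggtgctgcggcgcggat

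Atp5g1 had 2144, 2182 and 2552 with pyruvate and 1536, 1853 and 1611 untreated. The groups did not overlap, it rose by 0.46 ± 0.08 (SE, n = 3 each, adjusted p = 0.0012), and it was called higher under all 3 scalings (0.39 after quantile, 0.35 after loess). Atp5g1 also stood highest of the 34 relative to its like-brightness probe sets, whose median was 0.08. Atp5g3 had 5226, 6412 and 5815 with pyruvate and 4601, 4707 and 4318 untreated, and rose by 0.35 ± 0.07 (SE, adjusted p = 0.0031), though not after quantile normalization (-0.07, adjusted p = 0.17). Its like-brightness median was 0.32.

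Atp5g2 had 3248, 3995 and 3578 with pyruvate and 3230.0, 2950.5 and 2936 untreated, with replicate 1 of each group almost touching. It rose by 0.24 ± 0.07 (SE, adjusted p = 0.024), a call lost in 4 of the 6 fits that left out an array, and gave 0.05 after quantile normalization (adjusted p = 0.50). A dim Atp5g2 probe set pointed downward without overlap but did not pass (-0.32, adjusted p = 0.087). The responses of the 3 genes were compared pairwise by an exact two-sided permutation test, in which 3 against 3 arrays allow no p below 0.1. Atp5g1 exceeded Atp5g2 by 0.21 (exact p = 0.3, adjusted over the 3 pairs p = 0.40) and Atp5g3 by 0.10 (exact p = 0.4, adjusted p = 0.40). Atp5g3 exceeded Atp5g2 by 0.11 (exact p = 0.1, adjusted p = 0.30), which turned to -0.12 after quantile normalization. After quantile normalization Atp5g1 exceeded Atp5g2 by 0.34 (exact p = 0.2, adjusted p = 0.20) and Atp5g3 by 0.46 (exact p = 0.1, adjusted p = 0.15). Because this test cannot reach 0.05, it cannot decide whether the 3 genes differed in response.

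The F1 head and its central stalk make ATP as the rotor turns. Atp5b, the catalytic beta subunit, had 5275, 5999 and 5392 with pyruvate and 4258, 4438 and 4409 untreated. It rose by 0.34 ± 0.06 (SE, adjusted p = 0.00093) and by 0.16 after loess (adjusted p = 0.010), below the loess median of 0.24 at its brightness, but turned to -0.06 after quantile normalization (adjusted p = 0.25). Atp5a1, the alpha subunit, had 3481, 3681 and 3490.4 with pyruvate and 3111, 3192 and 3139.6 untreated. It rose by 0.17 ± 0.05 (SE, adjusted p = 0.015) but turned to -0.02 after quantile normalization, and its like-brightness median was 0.20. The call was lost in 2 of the 6 fits that left out an array. Dimmer Atp5a1 probe sets gave -0.03 (adjusted p = 0.62) and -0.21 (adjusted p = 0.27).

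Atp5e, the epsilon subunit of the central stalk, had 913.7, 936.3 and 902.2 with pyruvate, against 789.9, 764.8 and 837.0 untreated. It rose by 0.20 ± 0.05 (SE, adjusted p = 0.011) with no overlap, a call lost in 1 of the 6 fits that left out an array. Unlike the brighter head genes it lay where the like-brightness median was -0.01, and its change was 0.20 after quantile (adjusted p = 0.0083) and 0.16 after loess normalization (adjusted p = 0.027). Its 120 upstream bases, at chr2:174464102-174464221 on the minus strand, are shown because they hold the ETS motif CCGGAAG, the most frequent of the motifs among these genes, here as its reverse complement in capitals.
Atp5e: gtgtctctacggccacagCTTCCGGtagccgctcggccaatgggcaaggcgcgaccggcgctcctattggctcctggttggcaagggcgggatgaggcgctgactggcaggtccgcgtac

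Atp5d, the delta subunit of the stalk, had 2963, 3398 and 3242 with pyruvate and 2861, 2862 and 2899.6 untreated, without overlap, but missed the threshold (0.15, adjusted p = 0.057). Atp5c1, the gamma shaft, had 3256, 3505 and 3322 with pyruvate and 3240.3, 3250.2 and 3275 untreated, with overlap (0.05, adjusted p = 0.51). It was called lower after quantile (-0.15, adjusted p = 0.0049) and loess normalization (-0.10, adjusted p = 0.046). After quantile normalization, then, Atp5e was called higher and Atp5c1 lower, and Atp5a1, Atp5b and Atp5d did not pass.

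The peripheral stalk holds the head still against the turning rotor. Atp5j, coupling factor 6, had 2604, 3054 and 3036 with pyruvate and 2496, 2597 and 2517 untreated. It rose by 0.19 ± 0.06 (SE, adjusted p = 0.041), the least secure of the calls, being lost in 5 of the 6 fits that left out an array. Atp5o, the oligomycin sensitivity protein, had 2516, 2692 and 2559 with pyruvate and 2371, 2328 and 2413 untreated, with no overlap (0.13, adjusted p = 0.063). A dimmer Atp5o probe set fell by 0.32 (adjusted p = 0.011), also without overlap. Atp5h, the d subunit, had overlapping groups and a change of -0.01 (adjusted p = 0.96). Its other probe set, almost as bright, rose by 0.26 ± 0.05 (SE, adjusted p = 0.0015) without overlap. That probe set was also higher after quantile normalization (0.13, adjusted p = 0.016), so the probe sets of Atp5h differed.

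Atp5f1, the long b subunit, had 2971, 3139 and 3100.5 with pyruvate and 3237, 3224 and 3234 untreated, so all 3 pyruvate arrays were lower. The change of -0.07 did not pass (adjusted p = 0.25), and Atp5f1 was called lower after quantile (-0.25, adjusted p = 0.00024) and loess normalization (-0.22, adjusted p = 0.00084). Its other probe set fell as deposited, without overlap, by 0.29 ± 0.07 (SE, adjusted p = 0.0069). The mean signals of that probe set were 1831 with pyruvate and 2239 untreated.

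Among the small membrane subunits, which link ATP synthase dimers and shape the cristae, Atp5k was the single gene of the 34 to fall as deposited. Atp5k, subunit e, had 2124, 1943.0 and 2067 with pyruvate and 2439, 2569.7 and 2287 untreated. The groups did not overlap and it fell by 0.25 ± 0.06 (SE, n = 3 each, adjusted p = 0.0061), with -0.34 after quantile (adjusted p = 0.0010) and -0.36 after loess (adjusted p = 0.00063). Its other 2 probe sets fell as well. One had 463.9, 542.5 and 482.5 with pyruvate and 693.8, 729.6 and 768.2 untreated (-0.55, adjusted p = 0.00011), and the other fell by 0.27 (adjusted p = 0.029).

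Both of those dimmer Atp5k probe sets end in _x_at, and RefSeq lists 4 named Atp5k pseudogenes, the most of any of the 34. Its 120 upstream bases, at chr5:108434400-108434519 on the minus strand, are shown because they hold the same NRF1 motif in capitals as those of Atp5g2. An ETS match lies 12 bases after the start, outside this stretch. Whether either motif bears on the changes was not tested.
Atp5k: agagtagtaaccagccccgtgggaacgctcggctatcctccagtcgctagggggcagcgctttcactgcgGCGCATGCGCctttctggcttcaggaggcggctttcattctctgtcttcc

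Atp5l, subunit g, which pairs with subunit e, had 1654, 1705 and 1774 with pyruvate and 1562, 1479.6 and 1673 untreated, with overlap (0.12, adjusted p = 0.11). Atp5j2, subunit f, had 2866, 3318 and 3328 with pyruvate and 3405, 3066 and 3289.6 untreated (-0.04, adjusted p = 0.70). It was called lower after quantile (-0.24, adjusted p = 0.0067) and loess (-0.19, adjusted p = 0.025). A second bright Atp5j2 probe set pointed upward as deposited, without overlap, but did not pass (0.13, adjusted p = 0.056). Whether Atp5k and Atp5l differed in response was not tested.

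Many of these genes had several probe sets, and the brighter of a gene's probe sets tended to change further upward. The 34 genes had 74 probe sets, of which 65 were tested, 20 were called higher and 9 lower, beside 16.3% and 15.9% of all probe sets. Over 31 pairs of tested probe sets in 22 genes, each the brightest against another of the same gene, the brighter one changed more upward in 23 pairs (74.2%), by a median of 0.16. Among other genes whose brighter probe set reached a mean log2 signal of 10, this held in 63.3% of 1737 pairs, by a median of 0.08. After quantile normalization the shares were 64.5% for the subunit genes and 52.5% for the other genes. These pairs were compared after the data had been seen, share transcripts and arrays, and carry no test.

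**Figure D4:**
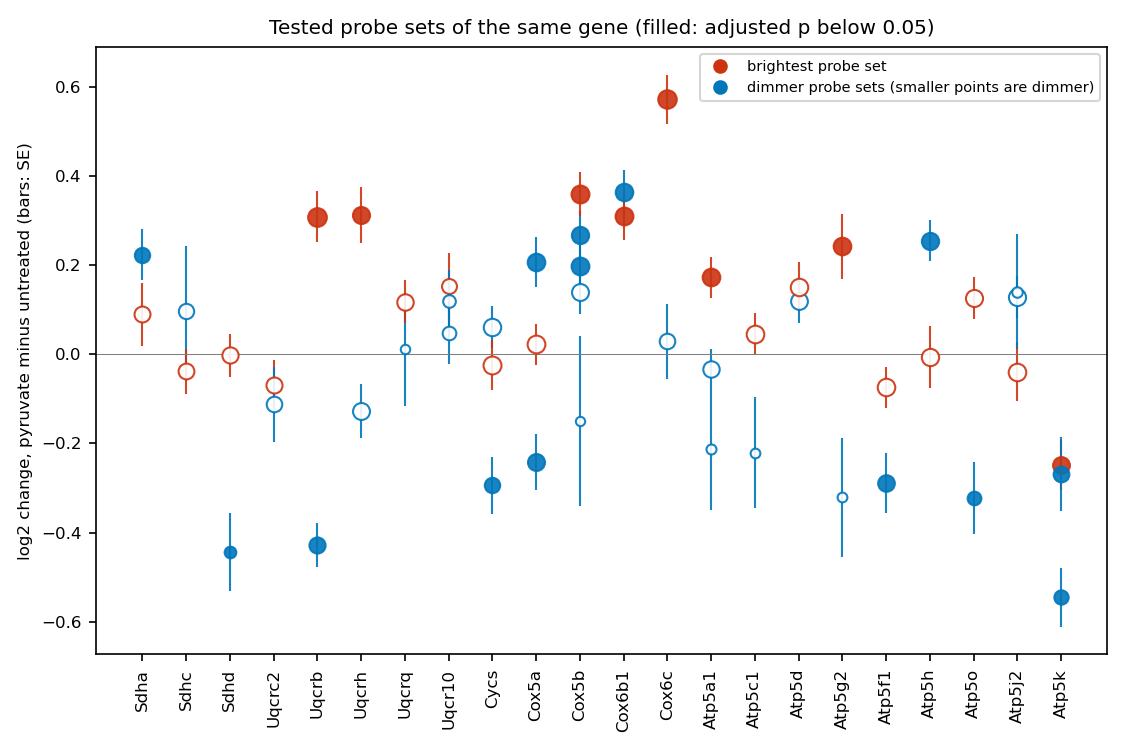
Log2 change (bars SE) of every tested probe set for the 22 subunit genes with several, the brightest of a gene in red and dimmer ones in blue, filled where adjusted p was below 0.05. All 3 Atp5k probe sets lie below 0, whereas the Uqcrb and Cox5a probe sets lie on both sides of 0 with called points in each direction.

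Promoters of the genes were read from RefSeq (GRCm38.p6), from 250 bases before to 50 bases after each start. There were 31 such windows for 28 of the 35 genes, Cox7b included. Both strands were searched for 4 motifs linked to mitochondrial genes, with overlaps between motifs allowed. The ETS motif CCGGAAG, bound by GABPA (NRF2 of the respiratory chain literature), was in 10 of 31 windows (32.3%), beside 8.86% of 32851 windows of all genes. The NRF1 motif GCGCATGCG was in 6 (19.4%, beside 1.75%), the YY1 motif AAGATGGC in 3 (9.68%, beside 2.75%) and the ERR motif TCAAGGTCA in 2 (6.45%, beside 0.423%). In 3 of those 6 the NRF1 match overlapped on both strands, as in Atp5g2 and Atp5k, which was the case in 0.971% of all windows. This fuller form was counted first, and the shorter one was taken up after its counts were known. A match is a run of letters and not a measured binding site. The median change of the 10 tested genes with the ETS motif was 0.17, against 0.09 for the 17 without it. Relative to like-brightness probe sets these medians were 0.07 and 0.01. With the NRF1 motif the median change of 6 genes was 0.08, against 0.14 for the 21 without it, but relative to like-brightness probe sets both were 0.03. With the YY1 motif it was -0.04 (3 genes), against 0.13 for 24 without it, and relative to like-brightness probe sets -0.22 and 0.03. With the ERR motif it was 0.17 (2 genes), against 0.13 for 25 without it, and relative to like-brightness probe sets -0.01 and 0.03. These medians are descriptions of a few genes and were not tested.

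The assembly factors of the same complexes, which are dimmer, and further ATP synthase subunits were counted as well. Of 41 listed, 36 were tested, of which 10 rose and 4 fell (median -0.02), beside 20.7% and 14.5% of all genes. Of these 14 calls, 12 were the same under all 3 scalings, 9 higher and 3 lower. For complex V, 2 of 3 assembly factors rose. Atpaf2, a chaperone of the alpha subunit, had 174.1, 202.5 and 201.6 with pyruvate and 127.1, 125.8 and 141.2 untreated (0.50 ± 0.09 SE, adjusted p = 0.0013). Atpaf1, a chaperone of the beta subunit, had 187.7, 252.6 and 228.2 with pyruvate and 155.9, 161.5 and 155.4 untreated (0.45 ± 0.10 SE, adjusted p = 0.0047). Both genes were higher on all 3 pyruvate arrays, in a range of brightness where the like-brightness shift was near 0. The 5 further subunits and regulators of complex V, among them the inhibitor Atpif1 (-0.03, adjusted p = 0.79), gave 0 calls by limma as deposited.

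For complex II, 2 of 4 assembly factors rose and 1 fell. Sdhaf4 and Sdhaf2, which act in maturation of the flavoprotein, rose by 0.43 (adjusted p = 0.00021) and 0.35 (adjusted p = 0.00067). Sdhaf1, which helps to deliver iron-sulfur clusters to Sdhb, had 73.2, 81.3 and 85.6 with pyruvate and 118.1, 115.5 and 104.8 untreated, and fell by 0.42 (adjusted p = 0.0077). Of 5 complex III factors tested, Uqcc2, needed for synthesis of cytochrome b, alone rose, with 2443, 2751 and 2860.2 with pyruvate and 1817, 1904 and 1958 untreated (0.50 ± 0.06 SE, adjusted p = 0.00013).

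Of 18 complex IV assembly factors tested, 5 rose and 3 fell. Surf1, which acts early in assembly of the catalytic core, had 367.7, 384.1 and 393.6 with pyruvate and 258.7, 269.8 and 281.0 untreated (0.48 ± 0.06 SE, adjusted p = 0.00015). Sco2, a copper chaperone, rose by 0.62 ± 0.16 (SE, adjusted p = 0.011), and Cox19, another protein of copper delivery, by 0.44 (adjusted p = 0.00010). Some other copper proteins did not follow. Cox17, a copper chaperone named after its values were seen, fell by 0.28 (adjusted p = 0.015) and was lower under all 3 scalings. Sco1 and Cox11, also named after their values were seen, changed by -0.25 (adjusted p = 0.10) and -0.17 (adjusted p = 0.17) and did not pass.

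For comparison, complex I, the NADH dehydrogenase, had 13 of 33 subunit genes higher and 1 lower, with a median of 0.14, and 10 higher and 2 lower after quantile normalization. After loess 4 were higher and 2 lower (median 0.06). Its largest calls were Ndufs8, an iron-sulfur subunit, which fell by 0.43 (adjusted p = 0.025), and Ndufc1 and Ndufs5, accessory subunits that rose by 0.34 (adjusted p = 0.00035) and 0.31 (adjusted p = 0.0014). Of 7 tested tissue isoform genes of complex IV, 4 rose, with a median of 0.27, and 1 did so after quantile and 3 after loess normalization. Cox6a1 rose by 0.40 (adjusted p = 0.00023), Cox8a by 0.35 (adjusted p = 0.00036) and Cox7a2 by 0.30 (adjusted p = 0.00098), though Cox7a2 turned to -0.08 after quantile normalization. The difference between these lists and the subunits of complexes II to V was not tested.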

How the data were processed

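Total RNA from 6 samples was hybridised to Affymetrix Mouse430_2 arrays, 1 per sample. The authors deposited 1 linear intensity per probe set and array, scaled per array and made with MAS5 according to the submitters' processing notes, whose version is unstated. Probe-level data were not analysed here. Signals were transformed to log2(signal + 16), which understates the change of dim genes. Those 22519 probe sets whose mean reached the median of all non-control probe sets (log2 5.53) were tested by limma 3.58.1 under R 4.3.3 (lmFit and eBayes, trend on, two-sided, no block) and Benjamini-Hochberg adjustment over all of them at 0.05. A gene was given by its brightest probe set of 1 symbol over all arrays. Names, pseudogenes and promoter sequences came from RefSeq tables of GRCm38.p6. The scripts were tested on simulated data, with 50 probe sets of any tested brightness changed at each size. The fit recovered 12% of changes of 0.25 and 52% of changes of 0.5 there. Far fewer probe sets were called in that simulation (128) than in the data (3678 higher and 3572 lower), which made its adjusted threshold stricter. These shares are therefore not the recovery for the bright subunit genes, of which Sdhb was called at 0.14. A gene that did not pass may still have changed. Figures were drawn with matplotlib 3.10.9.

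The members and the other lists were chosen with earlier results of these data known. All 35 members are described. Of the other lists, counts are given and at most 3 called genes with the largest absolute change are named, beside Atpif1, Cox17, Sco1 and Cox11, named after their values were seen. Alternatives were the pseudocount, the signal filter, quantile, cyclic loess and median scaling, the variance model, array weights, the replicate block, the choice of probe set and each array left out. Pairs of probe sets were added after seeing the data. The number of arrays limits the precision.

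Replicate arrays correlated at 0.985 to 0.991 within groups and at 0.979 to 0.983 between groups. Deviations from the group mean on arrays with the same number correlated at -0.01, 0.01 and 0.02. Such values cannot show whether the replicate numbers pair the samples, and the main fit assumed no pairing.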

Additional observations from a re-analysis of the deposited data

How the results depend on the processing

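The count of members called higher (14) was 5 after quantile normalization, 8 after cyclic loess, 8 without the mean-variance trend, 7 when a gene's probe sets were averaged, and 9 to 16 with each array left out, the 9 without untreated replicate 2. The count called lower (1) was 9 after quantile, 9 after loess, 4 with the mean over probe sets, 2 without _x_at and _s_at probe sets, and 1 to 2 with an array left out, the 2 without pyruvate replicate 2 or 3. For complex II, the 1 higher became 0 with no signal filter, after quantile, after loess and without the trend, and was 0 to 1 with an array left out (0 without pyruvate replicate 3 or untreated replicate 1 or 2). The mean over probe sets gave it 1 lower. For complex III, the 3 higher became 1 after quantile, 1 after loess and 1 with the mean over probe sets. Its 0 lower became 3 after quantile and 3 after loess, and 0 to 1 with an array left out. For complex IV, 0 lower became 1 after quantile, loess and the mean over probe sets, and 0 to 1 with an array left out. For complex V, the 7 higher became 2 after quantile, 4 after loess, 3 without the trend, 3 with the mean over probe sets, and 4 to 9 with an array left out (4 without untreated replicate 2 or 3). Its 1 lower became 4 after quantile, 4 after loess, 2 with the mean over probe sets and 2 without _x_at and _s_at ones. Other pseudocounts, filters, median centring, robust variances and array weights left these counts within 1.5 times, apart from the filter for complex II.

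Among members called as deposited or under the alternative, signs turned after quantile normalization for Uqcrb (-0.16), Cox5a (-0.20), Atp5a1 (-0.022), Atp5b (-0.056), Atp5c1 (-0.15) and Atp5g3 (-0.068), as did that of the Atp5g3 minus Atp5g2 difference (-0.12). After loess they turned for Cox5a (-0.13) and Atp5c1 (-0.10), and with the mean over probe sets for Uqcrb (-0.060), Atp5a1 (-0.024) and Atp5g2 (-0.073). Members called in neither fit also turned, such as Atp5d (-0.025 after quantile), Uqcrc1 (-0.042 after loess) and, over averaged probe sets, Sdhc (0.030) and Uqcrq (-0.015). The cause was not tested.

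With the replicate block, 2 members were lower, 1 of them in complex III (Uqcrfs1), and the other counts stayed within 1.5 times. Whether the replicate numbers pair the samples was not known.

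With 3 arrays a group and 1 scaling per array, a change common to all transcripts cannot be seen, and directions of the brightest genes rest on the scaling chosen.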
